A study of Homo sapiens with 14 samples.

Results

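HSPA5, HSP90B1, HSPA9, TRAP1 and SERPINH1 encode chaperones of the endoplasmic reticulum (ER) and of mitochondria, and peaks of the transcription factors HSF1 and HSF2 near these 5 genes are described here in K562 cells, a human erythroleukemia line. A peak was taken as a member when it lay within 5 kb of the gene's window on the hg19 assembly, whichever antibody gave it. This left 22 of the 117699 peaks of the series, 13 from HSF1 or HSF2 and 9 from IgG. The rule uses gene names and positions, and the genes were named with earlier results of these data known.

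The assay was chromatin immunoprecipitation and sequencing (ChIP-seq) with an antibody to HSF1, an antibody to HSF2, or IgG, which gives the background. Cells were heat-treated (42 °C for 30 min) and mitotic, non-treated (culture at 37 °C) and mitotic, heat-treated and cycling, or non-treated and cycling. Mitotic cells were arrested, by an agent that is not given in the sources used here, and cycling cells were unsynchronised. Each of the 4 conditions has 1 library per antibody, made from 10 pooled immunoprecipitations. Each cell state has 1 input library that served as the control of its peak lists. Both inputs came from heat-treated cells (42 °C for 30 min), so the non-treated lists were also called against input of heated cells. Without replicates no difference between conditions could be tested, and all intervals are 95% intervals of counting error alone. PCR copies are not independent molecules, so even that error is a lower limit.

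Kept tags (aligned reads left after MACS removed any excess duplicates) ranged from 6164898 to 28676943 in the HSF libraries and from 2066373 to 17981369 in the IgG libraries. In heat-treated cycling cells, 16735990 of 16735990 HSF1 tags and 19476014 of 19476015 HSF2 tags were kept. In heat-treated mitotic cells, 7385467 of 10389953 HSF1 tags and 28299989 of 31319536 HSF2 tags were kept. Kept tags are thus unlike shares of the total tags in the cell states. The value given for a peak is its tags per 1000000 kept tags (CPM). Peaks were called in each library separately, and a peak carries the authors' deposited fold over input, which ranks peaks within a list here and is not compared between lists. The fold was below 1 for 29.9% of peaks in heat-treated mitotic HSF1, 48.5% in non-treated mitotic HSF1 and 89.9% in non-treated mitotic IgG. It was below 1 for at most 0.127% of peaks in any other list. Such peaks are included in the ranks, lowest listed values and whole-list shares below. A library with no listed peak at a place is reported as such, since the lists do not give tags outside peaks. The weakest listed peak had 9 tags in heat-treated mitotic HSF1, 8 in non-treated mitotic HSF1, 13 in heat-treated cycling HSF1 and 12 in non-treated cycling HSF1, and 16, 12, 14 and 17 tags in the HSF2 lists of the same order. A weaker enrichment would not be seen in these lists.

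Under heat, HSF1 forms trimers that bind heat shock elements, inverted repeats of the unit GAA, and activates chaperone genes of the cytosol and nucleus. HSF2 recognises the same element and can form mixed trimers with HSF1. Chaperones of the ER answer mainly to another pathway, the unfolded protein response, in which ATF6 together with NF-Y acts on the ER stress element. HSPA5 (BiP) is the HSP70 of the ER and HSP90B1 (GRP94) its HSP90, while HSPA9 (mortalin) and TRAP1 are the HSP70 and HSP90 of mitochondria. SERPINH1 (HSP47) resides in the ER and binds procollagen, and it is long known as a heat-inducible gene.

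The promoters of 4 genes are shown because they carry these elements unequally. They span 250 bases before to 50 bases after the annotated gene start (RefSeq, GRCh38.p14), read 5′ to 3′ along the gene. Capitals mark matches to the heat shock element in SERPINH1 and HSPA9 and to the ER stress element in HSP90B1 and HSPA5. The windows are chr11:75562003-75562302 (plus strand), chr5:138575352-138575651 (minus strand), chr12:103930160-103930459 (plus strand) and chr9:125241294-125241593 (minus strand), in the order printed. GRCh38 positions were not carried over to the hg19 peaks.
SERPINH1: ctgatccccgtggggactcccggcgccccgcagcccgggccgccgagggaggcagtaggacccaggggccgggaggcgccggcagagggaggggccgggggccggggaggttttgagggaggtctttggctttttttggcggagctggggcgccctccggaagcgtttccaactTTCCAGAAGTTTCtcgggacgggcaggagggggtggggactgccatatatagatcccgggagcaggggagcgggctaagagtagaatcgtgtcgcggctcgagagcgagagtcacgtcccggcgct
HSPA9: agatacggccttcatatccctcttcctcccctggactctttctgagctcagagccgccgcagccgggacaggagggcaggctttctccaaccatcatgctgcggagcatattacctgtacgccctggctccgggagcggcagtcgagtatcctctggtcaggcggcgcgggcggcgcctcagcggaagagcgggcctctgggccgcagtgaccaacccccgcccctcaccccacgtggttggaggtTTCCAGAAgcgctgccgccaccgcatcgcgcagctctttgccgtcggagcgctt
HSP90B1: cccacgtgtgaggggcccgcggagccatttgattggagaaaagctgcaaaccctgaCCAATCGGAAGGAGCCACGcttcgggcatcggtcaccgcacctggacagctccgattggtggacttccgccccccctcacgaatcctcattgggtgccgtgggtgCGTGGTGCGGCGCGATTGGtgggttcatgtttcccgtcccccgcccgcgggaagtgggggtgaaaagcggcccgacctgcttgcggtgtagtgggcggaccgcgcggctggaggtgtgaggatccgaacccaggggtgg
HSPA5: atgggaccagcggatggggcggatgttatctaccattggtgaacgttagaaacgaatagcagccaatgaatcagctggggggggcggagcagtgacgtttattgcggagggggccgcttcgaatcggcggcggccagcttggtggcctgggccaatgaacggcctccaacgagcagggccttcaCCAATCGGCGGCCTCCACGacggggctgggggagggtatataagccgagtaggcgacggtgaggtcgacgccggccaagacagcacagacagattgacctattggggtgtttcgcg

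The SERPINH1 promoter held a heat shock element of 3 units, TTCCAGAAGTTTC, from -76 to -64 relative to the gene start. Its letters match TTCNNGAANNTTC, and this pattern or its reverse complement occurred in 172 of 35116 promoters (0.490%). The element contains the pair TTCNNGAA (in 7.74% of promoters) and the overlapping pair GAANNTTC (in 6.77%), and each pair is its own reverse complement. HSPA9 held the pair TTCNNGAA alone, from -4 to 4 with no position 0, so that the match lies across the annotated start. No match to either pair was found in the windows of HSPA5, HSP90B1 and TRAP1, or at a second annotated start of SERPINH1.

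The other element lay in HSPA5 and HSP90B1 and not in SERPINH1, the further ER chaperone of the 5. HSP90B1 had 2 exact matches to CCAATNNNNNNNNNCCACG on either strand, at -194 to -176 and at -89 to -71, and HSPA5 had 1, at -66 to -48. This pattern occurred in 27 of 35116 promoters (0.0769%), and its first letters, CCAAT, form the NF-Y box. The NF-Y box matched at 5 places each in the HSPA5 and HSP90B1 windows. At least 1 match occurred in 34.6% of all promoters, and the number of places per promoter was not compared. HSPA9 and TRAP1 had none, and SERPINH1 had 1 at its second start alone.

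**Figure D1:**
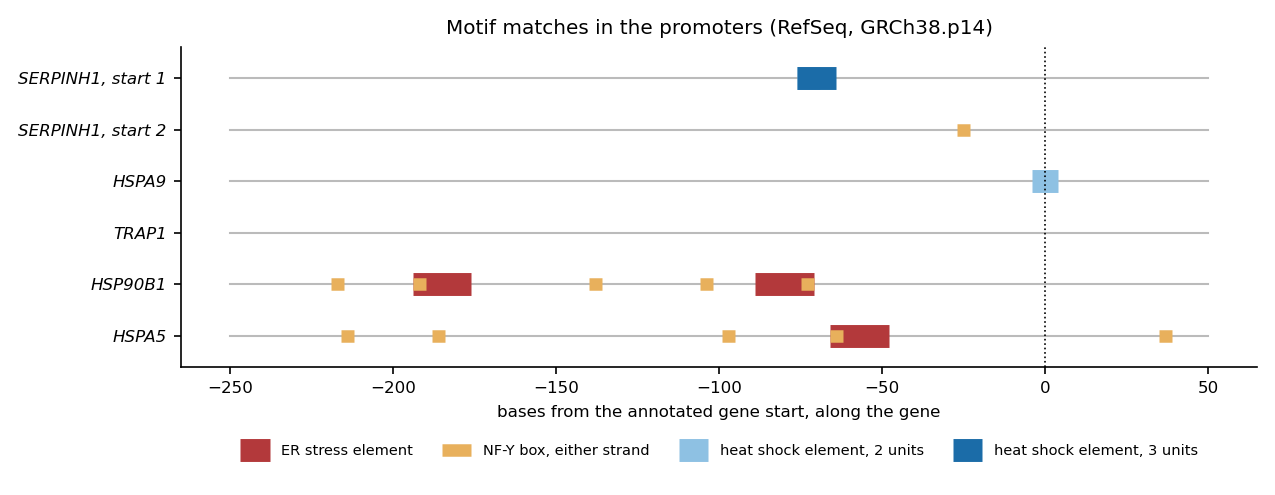
Motif matches along the promoters of the 5 genes, from 250 bases before to 50 bases after each annotated start. Heat shock elements lie in SERPINH1 (3 units, -76 to -64) and HSPA9 (2 units, across the start), ER stress elements in HSP90B1 (2) and HSPA5 (1), and TRAP1 has no match.

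Promoters of other genes of the same compartments were searched in the same way. Of 12 further ER chaperone and folding genes, 11 had a promoter sequence in the table (not PDIA3). The ER stress element matched in 4 of them (CALR and CANX, the calcium-binding lectin chaperones, PDIA6, a disulfide isomerase, and CRELD2), and a pair of heat shock units in CANX alone. Of 7 mitochondrial chaperone and protease genes, 5 were in the table (not GRPEL1 and CLPP), and HSPD1, the mitochondrial chaperonin HSP60, was the 1 with a heat shock pair, within an element of 3 units. Of 7 genes of collagen folding and modification, 6 were in the table (not FKBP10), with a heat shock pair in PLOD1, a lysyl hydroxylase, and no ER stress element. Among 7 classical heat shock genes, 5 had a heat shock pair (HSPA1A, HSPA8, DNAJB1, HSPB1 and HSP90AA1), 2 of them an element of 3 units, and none an ER stress element. The NF-Y box matched in all 11 of these ER genes, in 2 of the 5 mitochondrial, 3 of the 6 collagen and 4 of the 7 heat shock genes. Over all 27305 genes in the table, 16.2% had a heat shock pair, 0.0916% an ER stress element and 39.7% an NF-Y box. A match describes letters in a short window and is no evidence of binding.

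SERPINH1 had the highest CPM of the 5 genes and the place shared by most lists. All 4 heat-treated HSF lists had a peak at the start side of the gene, in the region chr11:75272741-75273776, and none of the 4 IgG lists had one there. HSF1 had 23 tags (3.11 CPM, 1.97 to 4.67) in heat-treated mitotic cells and 57 tags (3.41 CPM, 2.58 to 4.41) in heat-treated cycling cells. HSF2 had 18 tags (0.636 CPM, 0.377 to 1.01) in heat-treated mitotic cells and 43 tags (2.21 CPM, 1.60 to 2.97) in heat-treated cycling cells. HSF1 was therefore high in both cell states and HSF2 in cycling cells, and mitotic HSF2 was the lowest of the 4. The mitotic HSF2 peak lay below the median of its own list in CPM (0.742) but above it in deposited fold (4.93, against a median of 3.87), and it was narrower than the median peak (578 against 691 bp). No non-treated HSF list had a peak in that region. The lowest listed values anywhere were 1.30 CPM in non-treated mitotic HSF1 and 0.831 CPM in non-treated cycling HSF1. Such lowest values, here and below, belong to whole lists and do not give the limit at a single place. For HSF2 the lowest listed values were 0.812 CPM in non-treated mitotic and 0.593 CPM in non-treated cycling cells. The IgG lists reached down to 0.723 CPM in heat-treated mitotic and 0.824 CPM in heat-treated cycling cells, and to 0.813 CPM in non-treated cycling cells, but only to 2.90 CPM in the shallow non-treated mitotic library.

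The 4 SERPINH1 summits fell within 86 bp, between 75273190 and 75273276. HSF1 and HSF2 summits in heat-treated cycling cells were 7 bp apart. The mitotic summit lay 52 bp from the cycling one for HSF1 and 27 bp for HSF2. On the plus strand, along which the gene runs, all 4 were 0.190 to 0.276 kb inside the start of the gene window, whose ends are known to the nearest kb. Of 86567 regions merged over the 12 lists, 318 (0.367%) had a peak in all 4 heat-treated HSF lists. Of the 18 regions near the 5 genes, 1 did. The merged regions include 36.4% listed in heat-treated mitotic IgG alone and 13.9% in non-treated cycling IgG alone, which lowers that share. Peaks in exactly these 4 lists and no other occurred in 41 regions.

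**Figure D2:**
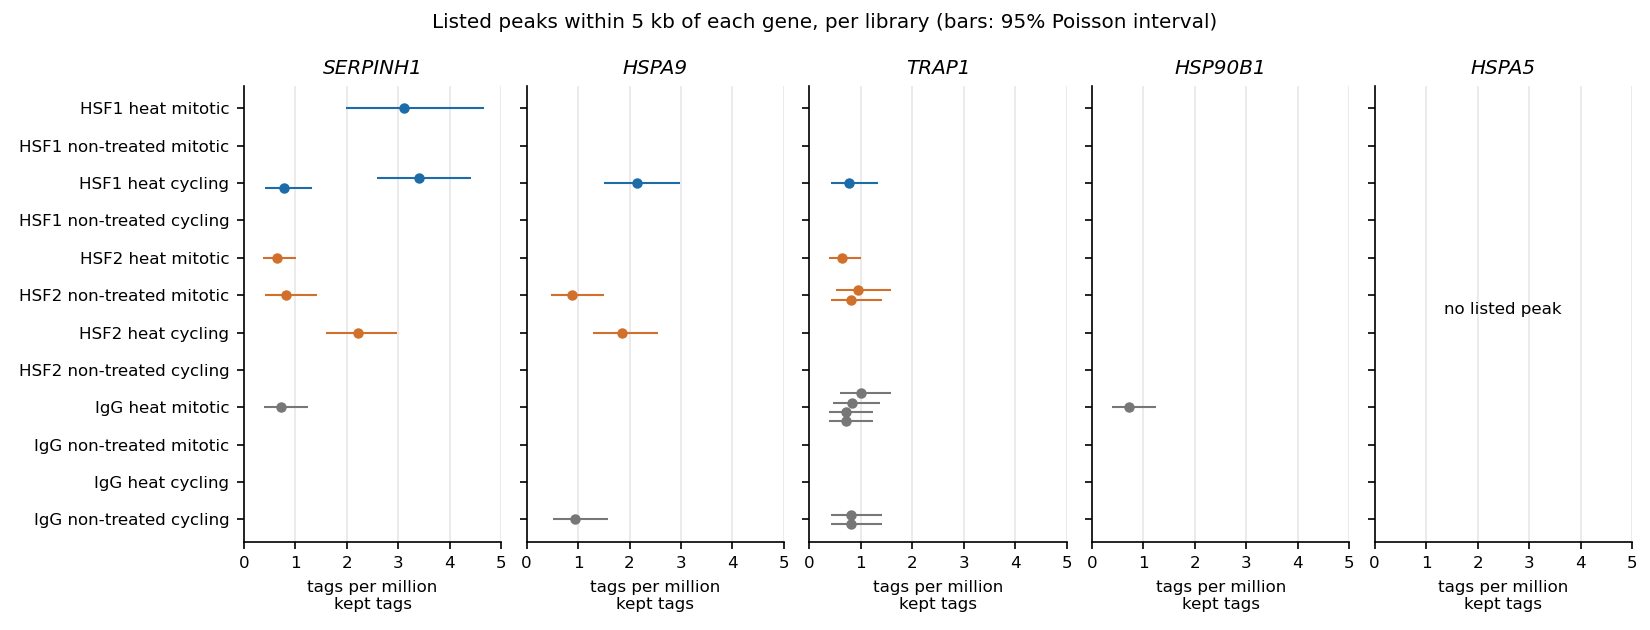
CPM of every listed peak within 5 kb of the 5 genes, by library, with HSF1 in blue, HSF2 in orange and IgG in grey. Bars are 95% Poisson intervals, and the heat-treated HSF1 peaks of SERPINH1 (3.11 and 3.41) and the heat-treated cycling peaks of HSPA9 (2.15 and 1.85) lie right of the single peaks, all at 1.00 or below.

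The mitotic to cycling ratio at SERPINH1 after heat was 0.914 (0.538 to 1.51) for HSF1 and 0.288 (0.156 to 0.510) for HSF2. The HSF1 interval includes equality and the HSF2 interval lies below it. Over all merged regions with a peak in both lists, the median ratio was 0.924 for HSF1 (quartiles 0.580 and 1.43, 956 regions) and 0.962 for HSF2 (quartiles 0.487 and 1.56, 604 regions). The SERPINH1 value was thus near the middle for HSF1 and below the lower quartile for HSF2. The HSF1 ratio itself varied with the processing. Per kb of peak it was 1.19, above the HSF1 median and within the quartiles, which were computed without width. Scaled to total instead of kept tags, HSF1 had 2.21 in heat-treated mitotic and 3.41 in heat-treated cycling cells, a lower ratio. That scaling shifts all regions of a list alike, so the place of SERPINH1 among them stays the same. The HSF2 reading depends on leaving width out: the peak was 578 bp wide in mitotic and 982 bp in cycling cells, and per kb of peak the ratio was 0.489, no longer below that quartile, which was itself computed without width. The ratio of HSF1 to HSF2 was 4.90 (2.53 to 9.63) in heat-treated mitotic cells and 1.54 (1.02 to 2.35) in heat-treated cycling cells. The medians over shared regions were 0.934 (quartiles 0.515 and 1.52, 894 regions) and 1.16 (quartiles 0.946 and 1.51, 2039 regions). The cycling value thus lay close to the upper quartile. Per kb of peak the ratios were 3.61 in mitotic and 1.48 in cycling cells. The antibodies differ, so a ratio of HSF1 to HSF2 is not a ratio of bound molecules. Each value belongs to 1 library, and a difference between libraries in enrichment or depth cannot be told apart from a difference between conditions. At most 1 duplicate tag per position was kept in heat-treated mitotic HSF1 and at most 2 in the other 3 heat-treated HSF libraries. The mitotic HSF lists also came from differently named alignment files than the cycling ones, and the part of either difference in these ratios was not tested.

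Within its list, the SERPINH1 peak came high for HSF1. By deposited fold it stood 30th of 4982 peaks in heat-treated mitotic HSF1 (fold 5.28) and 62nd of 6447 in heat-treated cycling HSF1 (fold 17.45). The median fold was 1.36 in the mitotic list, where 29.9% of peaks were below 1, and 3.12 in the cycling list. For HSF2 it stood 630th of 8270 in heat-treated mitotic cells (fold 4.93, FDR 4.15%) and 210th of 4315 in heat-treated cycling cells (fold 8.92, FDR 0%). Lists of unequal length and depth make these places a description of each list only.

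**Figure D3:**
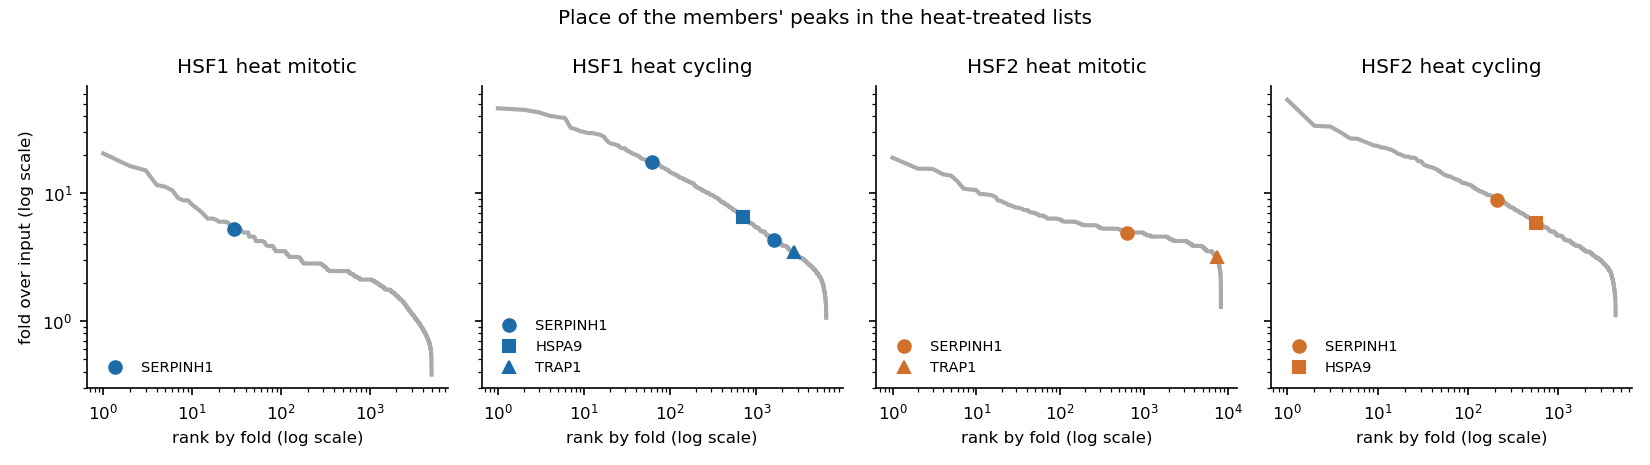
Deposited fold over input against rank in each of the 4 heat-treated HSF lists, both on log scales, with the peaks near the genes marked on the grey curve of all peaks. SERPINH1 sits at rank 30 and 62 in the HSF1 lists and at 630 and 210 in the HSF2 lists, above HSPA9 and TRAP1 wherever they share a list (an extra SERPINH1 peak of HSF1 lies at rank 1608).

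A few other regions resembled SERPINH1 most. Among the other 40 regions with peaks in exactly the same 4 lists, the closest were chr10:121410480-121411442, chr12:2903368-2904480 and chr18:19284477-19285423, by the largest absolute log2 ratio of CPM over the 4 lists (0.47, 0.47 and 0.58). In 5 of the 40, all 4 values were higher than at SERPINH1. The regions are given by position, as no hg19 annotation was used here.

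The other 3 peaks within 5 kb of SERPINH1 were each in 1 list. Heat-treated cycling HSF1 had a second peak of 13 tags (0.777 CPM, 0.414 to 1.33), 2.389 kb before the gene window. Non-treated mitotic HSF2 had a peak of 12 tags (0.812 CPM, 0.419 to 1.42) at chr11:75273971-75274558, whose summit was 1125 bp from the heat-treated cycling HSF1 summit. Heat-treated mitotic IgG had 13 tags (0.723 CPM, 0.385 to 1.24) beyond the far end of the gene, at chr11:75284348-75284889. These values are all below the lowest limit of the heat-treated HSF1 intervals at the start (1.97) and above the heat-treated mitotic HSF2 value there (0.636), within its interval.

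HSPA9 had a peak of both factors in heat-treated cycling cells and of neither at the same place in any other condition. HSF1 had 36 tags (2.15 CPM, 1.51 to 2.98) and HSF2 36 tags (1.85 CPM, 1.29 to 2.56) in heat-treated cycling cells, in the region chr5:137910549-137911603. No mitotic, non-treated or IgG list had a peak in it, while heat-treated mitotic lists reached down to 1.22 CPM for HSF1 and 0.565 CPM for HSF2. The summits were 51 bp apart, at 137911115 for HSF1 and 137911064 for HSF2. HSPA9 runs on the minus strand, so these summits, 0.885 and 0.936 kb before the right end of the window, lie on the start side of the gene. The HSF1 to HSF2 ratio was 1.16 (0.713 to 1.90), with the median over 2039 shared regions at 1.16.

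By fold, HSPA9 stood 704th of 6447 in HSF1 (fold 6.55) and 572nd of 4315 in HSF2 (fold 5.90). Compared with HSPA9 in the same libraries, SERPINH1 had 1.58 times its HSF1 tags (1.03 to 2.47) and 1.19 times its HSF2 tags (0.749 to 1.91), so that only the HSF1 interval lies above equality. The pattern of HSPA9, with peaks in these 2 lists alone, was shared by 1018 other regions, of which 121 had higher values in both. The closest were chr1:174122516-174123404, with identical CPM in both lists, chr19:17131597-17132704 and chr2:203129917-203130893 (largest absolute log2 ratio 0.04 for each). Regions with a peak of HSF1 and HSF2 in heat-treated cycling cells and of no IgG list made up 1.59% of all merged regions and 2 of the 18 regions near the 5 genes.

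**Figure D4:**
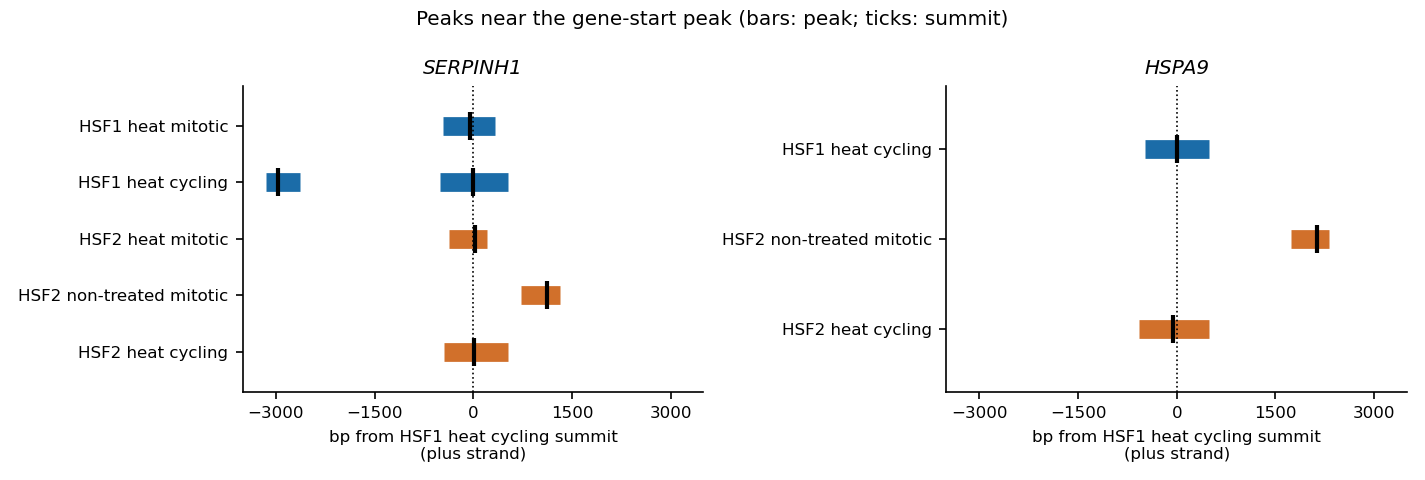
Extent of each HSF peak at SERPINH1 and HSPA9, in bp from the heat-treated cycling HSF1 summit, with a tick at each summit. In the regions shared by several heat-treated lists, summits align within 86 bp at SERPINH1 and 51 bp at HSPA9. The non-treated mitotic HSF2 peaks lie 1125 and 2135 bp away. The second heat-treated cycling HSF1 peak of SERPINH1, 2.389 kb before the gene window, also lies apart.

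The remaining HSPA9 peaks were single. Non-treated mitotic HSF2 had 13 tags (0.879 CPM, 0.468 to 1.50) at chr5:137912849-137913436, 2135 bp from the heat-treated cycling HSF1 summit. Non-treated cycling IgG had 14 tags (0.948 CPM, 0.519 to 1.59) inside the gene, 4681 bp from that summit. The intervals of the HSF and the IgG value overlap.

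TRAP1 had peaks and no shared place. Its 70 kb interval, chr16:3703000-3773000, held 10 peaks from 5 lists, 4 from HSF and 6 from IgG, and no peak overlapped another. Heat-treated mitotic HSF2 had 18 tags (0.636 CPM, 0.377 to 1.01) and non-treated mitotic HSF2 had peaks of 14 and 12 tags (0.947 and 0.812 CPM). Heat-treated cycling HSF1 had 13 tags (0.777 CPM, 0.414 to 1.33) at rank 2694 of 6447 by fold. IgG had 18, 15, 13 and 13 tags in heat-treated mitotic cells (0.723 to 1.00 CPM) and 12 tags at each of 2 places in non-treated cycling cells (0.813 CPM). The HSF and IgG values of TRAP1 overlapped, and the closest summits of an HSF and an IgG peak were 2872 bp apart. All 4 HSF summits lay inside the gene window, 24.904 to 54.588 kb from its start side, which is the right end because TRAP1 runs on the minus strand. The interval is the longest of the 5 and held 14.3 peaks per 100 kb, against 4.36 per 100 kb of effective genome over all lists. The 5 intervals together held 13.1 per 100 kb, with 33.3 at SERPINH1, 12.5 at HSPA9, 3.57 at HSP90B1 and 0 at HSPA5. These densities pool HSF and IgG peaks and are no measure of HSF binding. IgG gave 9 of the 22 peaks in the 5 intervals (40.9%) and 54.1% of all peaks.

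HSP90B1 had no HSF peak within 5 kb in any of the 8 HSF lists. Its 1 peak came from heat-treated mitotic IgG, with 13 tags (0.723 CPM, 0.385 to 1.24) at chr12:104324540-104325103, at the start side of the gene. HSPA5 had no peak of any antibody in chr9:127992000-128009000. Its nearest HSF peak had 14 tags (0.947 CPM) in non-treated mitotic HSF2. That peak was 13.536 kb beyond the right end of the gene window, the start side because HSPA5 runs on the minus strand. The HSP70 and HSP90 of the ER thus lacked the listed HSF peaks that SERPINH1 showed under the same heat, in libraries where the weakest listed peaks had 0.565 to 1.22 CPM.

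**Figure D5:**
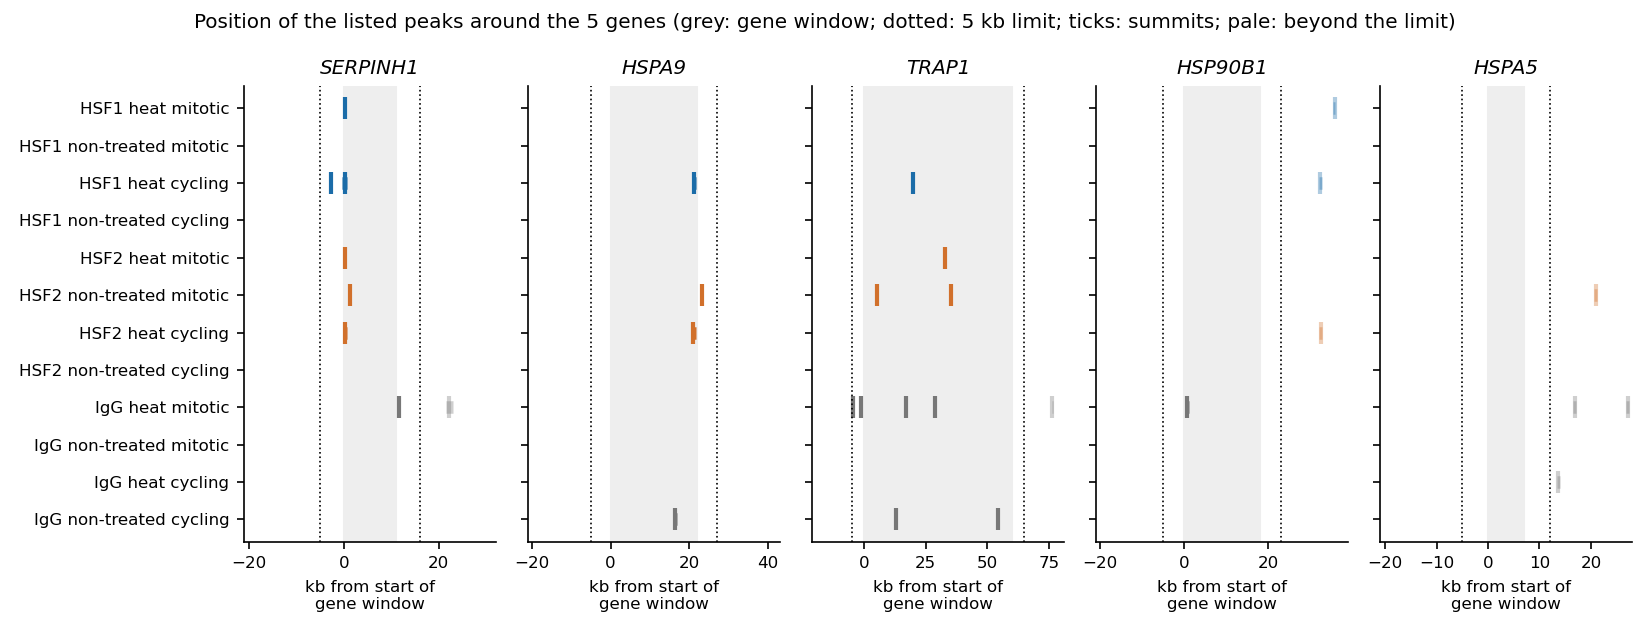
Position of every listed peak around the 5 genes, in kb from the start of each gene window (grey), with the 5 kb limit dotted and peaks beyond it pale. HSF peaks stack in several lists at the left end of SERPINH1 and the right end of HSPA9, both the start side of the gene, and are scattered in TRAP1.

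Peaks just inside and just outside the 5 kb limit differ by gene. The farthest inside was a heat-treated mitotic IgG peak 4.074 kb from TRAP1 (13 tags, 0.723 CPM). The nearest outside was a heat-treated cycling IgG peak 6.345 kb from HSPA5 (13 tags, 0.892 CPM). Beyond SERPINH1, heat-treated mitotic IgG had 37 tags (2.06 CPM, 1.45 to 2.84) 10.595 kb past the end of the gene window, in a peak 1400 bp wide. That IgG value is close to the heat-treated cycling values of HSPA9 (2.15 CPM for HSF1 and 1.85 CPM for HSF2). Beyond HSP90B1, heat-treated cycling HSF1 had 24 tags (1.43 CPM, 0.919 to 2.13, fold 6.90) 14.129 kb past the end of the gene window, and HSF2 of the same cells had 17 tags (0.873 CPM, 0.508 to 1.398) there, with summits 98 bp apart. In the GRCh38 table the neighbours that follow HSP90B1 on that side are UQCC6 and TDG, and the peaks were not assigned to a gene.

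Across heat, every heat-treated cycling HSF1 peak near the genes (4 of 4) lacked an overlapping non-treated cycling HSF1 peak, as did 88.3% of all 6447 peaks of that list. For HSF2 it was 2 of 2, against 93.5% of 4315. In mitotic cells the counts were 1 of 1 for HSF1 (67.9% of all) and 2 of 2 for HSF2 (78.1% of all). These shares are near what the whole lists give and are no result about the 5 genes. A mitotic counterpart after heat was listed for 1 of 4 heat-treated cycling HSF1 peaks (16.3% of all) and 1 of 2 HSF2 peaks (14.9% of all), in both cases SERPINH1.

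Between the factors, 2 of 4 heat-treated cycling HSF1 peaks overlapped an HSF2 peak (32.6% of all), and 2 of 2 HSF2 peaks overlapped an HSF1 peak (48.4% of all). The IgG lists overlapped none of the 13 HSF peaks, either in the same condition (17.3% of all 54007 HSF peaks) or in any condition (38.6%). Of the 18 merged regions near the genes, 16 were in 1 list alone, a share like that of all merged regions (84.6%). The 16 peaks in those regions had 12 to 18 tags and 0.636 to 1.00 CPM. Their 7 HSF values (0.636 to 0.947 CPM) and 9 IgG values (0.723 to 1.00 CPM) overlapped. The 6 peaks at the SERPINH1 and HSPA9 starts had 18 to 57 tags and 0.636 to 3.41 CPM, and the lowest of them, SERPINH1 in heat-treated mitotic HSF2, equalled the TRAP1 peak of the same list in tags and CPM.

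The number of genes with a peak is given beside the density of each whole list, since the lists differ in length. Heat-treated mitotic HSF1 had a peak at 1 of 5 genes (SERPINH1), with 0.185 peaks per 100 kb of effective genome in its list. Heat-treated cycling HSF1 had peaks at 3 (SERPINH1, HSPA9, TRAP1), with 0.239 per 100 kb. Heat-treated mitotic HSF2 had peaks at 2 (SERPINH1, TRAP1), with 0.306 per 100 kb, and heat-treated cycling HSF2 at 2 (SERPINH1, HSPA9), with 0.160 per 100 kb. Non-treated mitotic HSF2 had 4 peaks at 3 genes, none at a place shared with another list, from a denser list of 0.736 per 100 kb. Non-treated mitotic HSF1 (0.168 per 100 kb), non-treated cycling HSF1 (0.175) and non-treated cycling HSF2 (0.0324) had no peak near any of the 5. Heat-treated mitotic IgG, the densest list at 1.53 per 100 kb, had peaks at 3 genes, and non-treated cycling IgG, at 0.584, had peaks at 2. Heat-treated cycling IgG (0.162 per 100 kb) and non-treated mitotic IgG (0.0879) had none. The counts of genes were not compared between lists.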

How the data were processed

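Bowtie, the hg19 build and MACS 1.4 are named per the submitters' processing notes. Per the file headers, MACS was run as 1.4.1, with a p-value cutoff of 1e-05 and at most 1 or 2 duplicate tags per position. Each library was run against the input of its cell state. That control held 36542527 kept tags for non-treated cycling IgG and 34815679 for the other 5 cycling lists, so the control tags were not the same set. Per the file headers, 5 cycling lists came from alignments named bwa and the other 7 (the 6 mitotic ones and cycling IgG without heat) did not, so naming and cell state cannot be told apart for HSF1 and HSF2. The tags are deposited counts per peak, the deposited score is a p-value on a -10 log10 scale, the deposited fold is a ratio over the tags that input predicts at the summit, and the FDR is a deposited percent. The deposited length and summit positions were used in bp. In 1 list, chromosomes carry accession names and were renamed.

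From these, peaks within 5 kb of each gene window were taken, tags were divided by kept tags and multiplied by 1000000 (CPM), and exact Poisson intervals (95%) were added. The most tagged peak stood for a gene in a list. Ratios have exact conditional intervals. Overlap meant at least 1 bp, and regions were merged over the 12 lists. Regions most like a gene had peaks in exactly the same lists and were ranked by their largest absolute log2 ratio of CPM to the gene. All 5 genes are named. The genes, lists and motifs were chosen with earlier results of these data known. Promoters are RefSeq (GRCh38.p14), and all 5 genes matched by symbol. Motifs were searched on both strands. The selection, overlap and interval steps were tested on simulated data. Software was scipy 1.17.1, pandas 2.3.3, matplotlib 3.10.9 and numpy 2.4.6, under Python 3.11.15. Alternatives covered the distance, fold, score, FDR, IgG overlap, scaling and peak choice.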

Additional observations from a re-analysis of the deposited data

How the results depend on the processing

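Of 81 alternative counts of genes with a peak, 11 differed from the count reported by more than 1.5 times. The others are no measure of stability, since a stricter filter cannot change a count of 0 and no HSF peak near the genes overlapped an IgG peak. At 20 kb, in place of 5 kb, genes with a peak in any HSF list were 5 rather than 3, and in heat-treated mitotic HSF1 2 rather than 1. With a fold of at least 10 the counts became 1 for any HSF list and 1 for heat-treated cycling HSF1, and 0 for heat-treated mitotic HSF1, heat-treated mitotic HSF2, non-treated mitotic HSF2 and heat-treated cycling HSF2. With a fold of at least 5 they became 0 for heat-treated mitotic HSF2 and 0 for non-treated mitotic HSF2. With a score of at least 100, heat-treated mitotic HSF2 had 0. The cause of these changes was not tested beyond the thresholds themselves. Of 24 alternative CPM values at SERPINH1 and HSPA9, 1 left its interval, heat-treated mitotic HSF2 at SERPINH1 with 1.10 CPM per kb of peak width. HSF peaks with an IgG summit within 250 bp were 0 of 13, and the stricter reciprocal overlap of 50% could only give 0 as well. No paired analysis was possible because each group has 1 library, and for the same reason no library could be left out within a group.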
